A study of Mus musculus with 31 samples.

Results

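The genes described here are 34 genes of fatty acid, triglyceride and cholesterol synthesis, taken as a fixed list of symbols. All probes annotated to these symbols on an Illumina mouse bead array were used, which gave 41 probes for 30 of the 34 genes, out of 25697 probes for 16593 genes. Acacb, Acat2, Mvk and Fdft1 had no probe. The list holds 6 fatty acid synthesis genes, 6 desaturases and elongases, 3 triglyceride synthesis genes, 9 mevalonate pathway genes, 5 sterol ring genes and 5 genes of SREBP regulation and sterol transport.

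Levels were compared in liver and kidney RNA of male C57BL/6J mice, 20 to 30 weeks of age. Every mouse received lipopolysaccharide (LPS), a component of bacterial walls that inflames the whole body. The groups were LPS with modIVIg, LPS with IVIg (pooled IgG for intravenous use) and LPS with vehicle. The labels give neither the modification in modIVIg nor the doses and times, and no mice without LPS are among the arrays used, so all values compare treatments under LPS. Liver had 4 arrays in each group, and kidney had 4 modIVIg, 4 IVIg and 3 vehicle arrays. These are 23 of the 31 arrays of the series, and the blood arrays were not analysed here. The labels do not say that arrays of a group come from separate mice, so p-values measure the spread between these samples, which may be technical.

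Cells build fatty acids from acetyl-CoA that ATP citrate lyase makes from citrate. Acetyl-CoA carboxylase and fatty acid synthase make palmitate, which elongases and desaturases lengthen and unsaturate, and DGAT enzymes store the products as triglyceride. The mevalonate pathway turns acetyl-CoA into squalene and then cholesterol. The SREBP transcription factors drive most genes of both branches, and the INSIG proteins hold them back when sterols are plentiful; the liver is a main site of all of these steps.

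The share of probes detected was 31.6% to 35.3% on liver arrays and 34.8% to 41.2% on kidney arrays, with detection meaning a detection p under 0.01. Hepatocyte markers summed to 190891 to 217962 intensity units on liver arrays and proximal tubule markers to 108864 to 149765 on kidney arrays. In liver, 6 of 6 proximal tubule markers with a probe were detected on no array. In kidney, 4 of 8 hepatocyte markers (Alb, Tat, Fabp1 and Cps1) were detected on no array. The 4 others (Ttr, Apoa1, Apoa2 and Serpina1a) passed the detection filter there. The 8 hepatocyte markers summed to 5217 to 20428 intensity units on kidney arrays. Fabp1 was detected on no liver array either. Correlations between arrays of the same organ were 0.920 to 0.990 in liver and 0.842 to 0.992 in kidney, and 0 pairs were identical. Kidney replicates 1 and 2 stood apart from replicates 3 and 4 in every treatment, which touched several of the genes below.

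Of the 34 genes, 28 passed the detection filter in liver, 27 in kidney and 26 in both. In liver, Scd2 was detected on 1 array and Gpam on 0 of 12. In kidney, Fasn was detected on 0, Gpam on 2 and Dhcr7 on 2 of 11 arrays. Fasn, the fatty acid synthase itself, was near the limit in liver as well, with detection on 4 arrays. Levels below are log2 intensities after normexp background correction and quantile normalisation, so they compare arrays for a probe and not genes with each other. Changes are log2 differences with standard errors from limma, and a gene passed when its Benjamini-Hochberg adjusted p over all features of the organ was under 0.05.

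Promoters of 3 genes are shown because they are those whose liver levels are described first (Fads2 and Lss) and the gene whose promoter held all the SREBP-related motifs searched except the E-box (Hmgcs1). Each runs from 250 bases before to 50 bases after the annotated start, 5′ to 3′ on the gene's strand, from RefSeq with the build GRCm38.p6. Capitals mark matches on either strand to TCACNCCAC, a form of the sterol regulatory element, to CCAAT, the NF-Y box, which reads ATTGG on the other strand, or to CACGTG, the E-box that USF proteins and ChREBP can bind. Fads2 lies on the minus strand at chr19:10101454-10101753, Lss on the plus strand at chr10:76531355-76531654 and Hmgcs1 on the plus strand at chr13:119690101-119690400.
Fads2: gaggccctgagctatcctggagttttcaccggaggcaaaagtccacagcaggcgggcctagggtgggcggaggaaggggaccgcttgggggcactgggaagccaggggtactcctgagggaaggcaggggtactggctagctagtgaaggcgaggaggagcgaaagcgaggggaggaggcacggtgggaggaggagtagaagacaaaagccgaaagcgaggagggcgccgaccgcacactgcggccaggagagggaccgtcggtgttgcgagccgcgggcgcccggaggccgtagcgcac
Lss: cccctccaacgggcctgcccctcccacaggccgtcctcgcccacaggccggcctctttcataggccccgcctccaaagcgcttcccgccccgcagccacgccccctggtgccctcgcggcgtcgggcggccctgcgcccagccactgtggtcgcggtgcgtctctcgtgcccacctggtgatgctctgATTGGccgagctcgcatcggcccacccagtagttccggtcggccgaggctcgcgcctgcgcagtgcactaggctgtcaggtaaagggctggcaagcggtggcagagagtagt
Hmgcs1: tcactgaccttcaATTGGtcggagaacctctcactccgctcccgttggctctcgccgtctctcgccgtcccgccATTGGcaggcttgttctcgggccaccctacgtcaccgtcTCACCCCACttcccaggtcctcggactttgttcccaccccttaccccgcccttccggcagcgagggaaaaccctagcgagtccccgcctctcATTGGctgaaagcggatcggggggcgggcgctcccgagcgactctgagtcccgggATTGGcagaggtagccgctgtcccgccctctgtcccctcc

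Fads2 held none of these letters in this window, Lss held 1 CCAAT and Hmgcs1 held TCACNCCAC once and CCAAT 4 times. Promoter sequences were found for 24 of the 34 genes, in 33 promoters. CCAAT was in 21 of these 33 promoters (63.6%) and in 37.4% of all 32851 promoters of the table. Counted by gene, in any of its promoters, it was in 20 of the 24 genes and in 9 of the 10 sterol synthesis genes with a promoter sequence. These counts by gene do not compare with the share by promoter, since a gene can have several promoters. TCACNCCAC was in 1 of the 33 (3.03%), against 1.24% of all promoters, and CACGTG in 4 (12.1%), against 7.15% of all. A match is a description of letters and not of binding, and promoters of 1 gene overlap in part. Scd1, Scd2, Fads1, Dgat1, Dgat2, Acat3, Fdps, Fdft1, Sqle and Stard4 had no entry.

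In liver, the clearest difference among these genes under modIVIg was a fall of Fads2, and the 5 desaturases and elongases tested all had lower fitted levels than under vehicle, while 8 of 11 sterol synthesis genes had higher ones. Of all 7155 features, 3210 had lower fitted levels and 3945 higher ones. Fads2 was the only gene of the 28 that passed, at 2.32-fold lower with modIVIg than with vehicle and 2.18-fold lower than with IVIg. Over all genes of the list the log2 changes centred near 0, with 14 higher and 14 lower against vehicle and a median of -0.04, beside 0.04 for all 7155 features. Between IVIg and vehicle none of the 28 genes passed (0 of 28 at an unadjusted p under 0.05 in limma).

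For the comparison of modIVIg with vehicle, 1 of 28 genes passed, and it was lower, beside 4.92% of all features passing and 2.95% passing as lower. At an unadjusted p under 0.05 there were 5 of 28 genes (Fads2, Fads1, Elovl5, Elovl6 and Lss), beside 24.5% of all features. Lower fitted levels were found for 14 of the 28, beside 44.9% of all features. Groups did not overlap for Fads2, which was lower, where 8.54% of all features separated in that direction, and for Lss, which was higher, where 11.3% did. None of these shares for the list is far above that of the whole array. In bulk tissue, fewer cells of a type and less RNA per cell cannot be told apart.

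Fads2 is the desaturase that takes the first step from linoleic and linolenic acid towards long polyunsaturated fatty acids. Its level was 7.82, 7.85, 7.46 and 8.28 on the modIVIg arrays, 9.08, 9.49, 9.0 and 8.34 on the IVIg arrays and 8.70, 9.12, 9.41 and 9.03 on the vehicle arrays. All 4 modIVIg arrays lay below all 8 others, and the closest were modIVIg replicate 4 and IVIg replicate 4. The means were 7.85 ± 0.33 with modIVIg, 8.98 ± 0.48 with IVIg and 9.06 ± 0.29 with vehicle (SD, n = 4 each). Against vehicle the log2 change was -1.21 ± 0.24, with a 95% interval from -1.74 to -0.68 and a limma adjusted p of 0.0207. Against IVIg it was -1.13 ± 0.24, with an interval from -1.65 to -0.60 and an adjusted p of 0.0481.

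The Fads2 difference from vehicle passed in 10 of 10 other settings, with log2 changes from -1.25 to -0.90 and limma adjusted p from 0.00413 to 0.0390. The 10 include a fit without IVIg replicate 3 and vehicle replicate 2, which was chosen after the data were seen and run for this comparison only. With 1 array left out in turn it was lost in 4 of 12 fits: without vehicle replicate 2 (0.0636), vehicle replicate 3 (0.0562), modIVIg replicate 1 (0.0597) or modIVIg replicate 3 (0.0591), with log2 changes from -1.36 to -1.08 over the 12. The difference from IVIg was close to the threshold and was lost in 8 of 9 other settings and 10 of 12 fits with 1 array left out. Its log2 change kept its sign in all of them, from -1.34 to -0.83.

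The other desaturases and elongases were lower with modIVIg in fitted mean and did not pass. Elovl5, which elongates the polyunsaturated products of Fads2, had 12.35, 13.03, 12.73 and 13.59 on modIVIg arrays, 13.75, 13.99, 13.99 and 13.71 on IVIg arrays and 12.97, 14.19, 13.72 and 13.53 on vehicle arrays. Its modIVIg arrays lay below all IVIg arrays and overlapped the vehicle arrays, of which replicate 1 was low. The log2 change was -0.67 ± 0.27 against vehicle (adjusted p = 0.154) and -0.93 ± 0.27 against IVIg (adjusted p = 0.113).

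Fads1, Elovl6 and Scd1 are named here after their values were seen. Fads1, the desaturase that acts after Fads2 and Elovl5 on the same route, had 13.12, 13.30, 12.96 and 13.76 on modIVIg arrays, 13.77, 13.68, 14.18 and 13.60 on IVIg arrays and 13.56, 13.97, 13.79 and 13.82 on vehicle arrays. Replicates 1, 2 and 3 of modIVIg were below every other array, and modIVIg replicate 4 was among them. The log2 change of Fads1 was -0.50 ± 0.19 against vehicle (adjusted p = 0.128) and -0.52 ± 0.19 against IVIg (adjusted p = 0.186).

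Elovl6, which lengthens palmitate, had 9.74, 9.88, 9.31 and 9.18 on modIVIg arrays, 10.37, 9.82, 9.13 and 10.70 on IVIg arrays and 11.09, 10.45, 9.79 and 10.31 on vehicle arrays. Its groups overlapped, with a log2 change of -0.88 ± 0.33 against vehicle (adjusted p = 0.132). Scd1, the desaturase that makes oleic and palmitoleic acid, had 14.64, 15.32, 15.08 and 15.69 on modIVIg arrays, 15.57, 15.56, 15.65 and 15.45 on IVIg arrays and 15.39, 15.64, 15.54 and 15.61 on vehicle arrays. Its modIVIg arrays spread more widely than the others (SD 0.44, against 0.08 with IVIg and 0.11 with vehicle), and the highest array of all was modIVIg replicate 4. That array was also the highest of its group for Fads2, Fads1 and Elovl5. The median log2 change over the 5 genes was -0.67 against vehicle and -0.52 against IVIg.

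**Figure D1:**
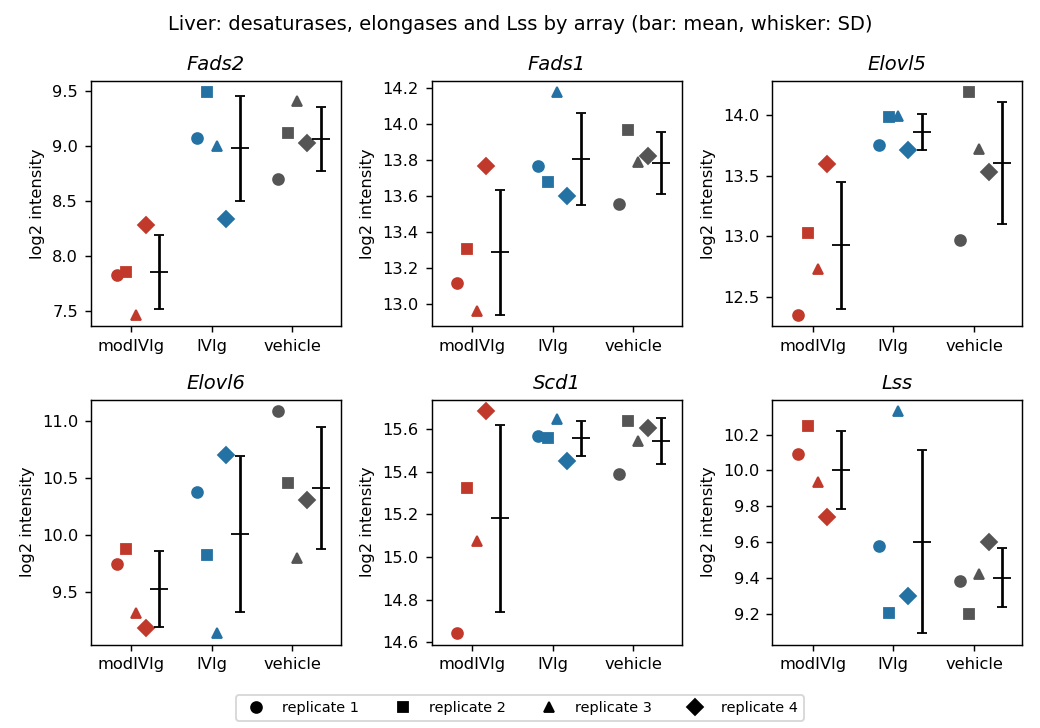
Levels of Fads2, Fads1, Elovl5, Elovl6, Scd1 and Lss on each of the 12 liver arrays, in log2 intensity, with a separate vertical scale for each gene; symbols give the replicate number, horizontal bars the group mean and whiskers the SD (n = 4). The modIVIg points of Fads2 (7.46 to 8.28) lie below all IVIg and vehicle points (8.34 to 9.49), while for Lss they lie above the vehicle points but not above IVIg replicate 3.

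Fatty acid synthesis genes showed no difference past the threshold, with 1 of 5 higher and 4 of 5 lower against vehicle and a median log2 change of -0.16. Acaca, the acetyl-CoA carboxylase, had 10.30, 10.10, 9.69 and 10.26 on modIVIg arrays, 10.34, 10.57, 10.93 and 10.40 on IVIg arrays and 10.41, 10.55, 9.86 and 10.15 on vehicle arrays. All modIVIg arrays lay below all IVIg arrays, by 0.47 ± 0.19 in mean (a log2 change of -0.47, adjusted p = 0.247), while modIVIg and vehicle overlapped (-0.16 ± 0.19).

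Thrsp, a regulator of lipogenesis, varied widely between arrays of the same treatment. It had 7.99, 9.59, 8.96 and 10.33 on modIVIg arrays, 9.63, 10.67, 8.65 and 9.28 on IVIg arrays and 8.35, 10.85, 10.41 and 9.82 on vehicle arrays. Its groups overlapped throughout, and the SD within groups was 0.85 to 1.09. Acly, Me1 (malic enzyme, a source of NADPH) and Fasn had log2 changes of -0.13, -0.20 and 0.14 against vehicle.

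The triglyceride genes Dgat1 and Dgat2, which add the last acyl chain, did not pass. Dgat1 had 6.50, 6.45, 6.57 and 6.47 on modIVIg arrays, 6.47, 5.99, 6.09 and 6.55 on IVIg arrays and 5.88, 5.20, 6.82 and 6.40 on vehicle arrays, and its probe was detected on 7 of the 12. Dgat2 had 12.77, 12.44, 13.07 and 12.85 on modIVIg arrays, 12.88, 12.12, 13.05 and 12.47 on IVIg arrays and 12.71, 12.72, 12.86 and 12.77 on vehicle arrays. Groups overlapped for both genes, with log2 changes against vehicle of 0.42 ± 0.28 for Dgat1 and 0.02 ± 0.19 for Dgat2.

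In the sterol branch, 8 of 11 genes were higher with modIVIg than with vehicle and 3 lower in fitted mean, with a median log2 change of 0.17 and none past the threshold. Of all 7155 features, 3945 were higher. Lss, lanosterol synthase, which closes the sterol ring, had 10.09, 10.25, 9.93 and 9.74 on modIVIg arrays, 9.58, 9.20, 10.33 and 9.30 on IVIg arrays and 9.38, 9.20, 9.42 and 9.60 on vehicle arrays. The modIVIg arrays lay above all vehicle arrays, and IVIg replicate 3 was the highest array of all. The log2 change was 0.60 ± 0.22 against vehicle (95% interval 0.12 to 1.08, limma adjusted p = 0.123) and 0.40 ± 0.22 against IVIg. Without IVIg replicate 3 in the fit, Lss passed against vehicle (adjusted p = 0.0229) and against IVIg (adjusted p = 0.0378).

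Sqle, squalene epoxidase, had 12.29, 12.57, 12.43 and 12.60 on modIVIg arrays, 12.83, 12.20, 12.74 and 12.42 on IVIg arrays and 12.03, 12.59, 11.95 and 12.64 on vehicle arrays. Pmvk, phosphomevalonate kinase, had 8.05, 8.17, 7.84 and 8.04 on modIVIg arrays, 8.36, 8.42, 8.23 and 7.91 on IVIg arrays and 7.84, 8.45, 8.50 and 8.36 on vehicle arrays. Acat3, a thiolase closely related to Acat2, had 6.82, 6.46, 6.72 and 7.43 on modIVIg arrays, 6.67, 7.36, 6.88 and 7.14 on IVIg arrays and 7.15, 7.45, 7.23 and 6.85 on vehicle arrays. The groups of these 3 genes overlapped, with log2 changes against vehicle of 0.17 ± 0.19 for Sqle, -0.26 ± 0.17 for Pmvk and -0.31 ± 0.22 for Acat3. Hmgcs1, Hsd17b7, Fdps and Mvd had log2 changes of 0.31, 0.33, 0.25 and 0.26 against vehicle.

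The sterol genes moved with single arrays. IVIg replicate 3 was the highest of 12 arrays for 5 of 11 sterol synthesis genes, and it was also the highest for 18.5% of all features. Vehicle replicate 1 was the lowest for 5 of the 11, against 5.32% of all features. Without vehicle replicate 1, the log2 change of Lss against vehicle was 0.59 (adjusted p = 0.175).

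Srebf1 encodes the SREBP that drives fatty acid genes, and its probe was detected on 9 liver arrays. It had 6.37, 6.26, 6.28 and 6.21 on modIVIg arrays, 7.13, 7.47, 7.77 and 6.41 on IVIg arrays and 7.25, 7.81, 5.97 and 6.28 on vehicle arrays. All modIVIg arrays lay below all IVIg arrays, with a log2 change of -0.91 ± 0.37 (adjusted p = 0.240), and they lay within the range of the vehicle arrays (-0.55 ± 0.37, adjusted p = 0.381). Insig2 had 11.93, 10.97, 11.67 and 11.48 on modIVIg arrays, 11.62, 10.66, 12.27 and 10.96 on IVIg arrays and 10.22, 10.87, 11.50 and 11.80 on vehicle arrays. Its groups overlapped (0.41 ± 0.39 against vehicle). Srebf2, Insig1 and Stard4, a sterol carrier, had log2 changes of -0.11, 0.02 and 0.23 against vehicle.

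Where a gene had several probes in liver, they mostly gave the same sign. Against vehicle the probe shown for Insig1 gave 0.02 and its other probes -0.13 and -0.18, while the 4 probes of Nsdhl, a sterol dehydrogenase, gave -0.46 to -0.04.

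Against IVIg, 1 of 28 genes passed, lower, beside 1.09% of all features and 0.894% as lower. At an unadjusted p under 0.05 there were 5 of 28 (Fads2, Elovl5, Fads1, Acaca and Srebf1), beside 16.4% of all features. Lower fitted levels were found for 15 of 28, beside 42.8%. Groups did not overlap for 5 of the 28, all lower with modIVIg (Fads2, Elovl5, Acaca, Srebf1 and Nsdhl), beside 4.57% of all features separated in that direction. For Nsdhl this was read from the probe shown (-0.45), while its other probes gave log2 changes of -0.54, -0.13 and -0.02. Both modIVIg comparisons use the same modIVIg arrays. The median was -0.06 for the 28 genes and 0.05 for all features.

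IVIg against vehicle gave 0 of 28 genes and 0 of 7155 features (0%) past limma's threshold. At an unadjusted p under 0.05 there were 0 of 28 genes and 128 features (1.79%). Log2 changes ran from -0.40 (Elovl6) to 0.36 (Srebf1), with 17 of 28 above 0, beside 51.3% of all features. For Fads2 the change was -0.09 ± 0.24, with an interval from -0.61 to 0.44.

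**Figure D2:**
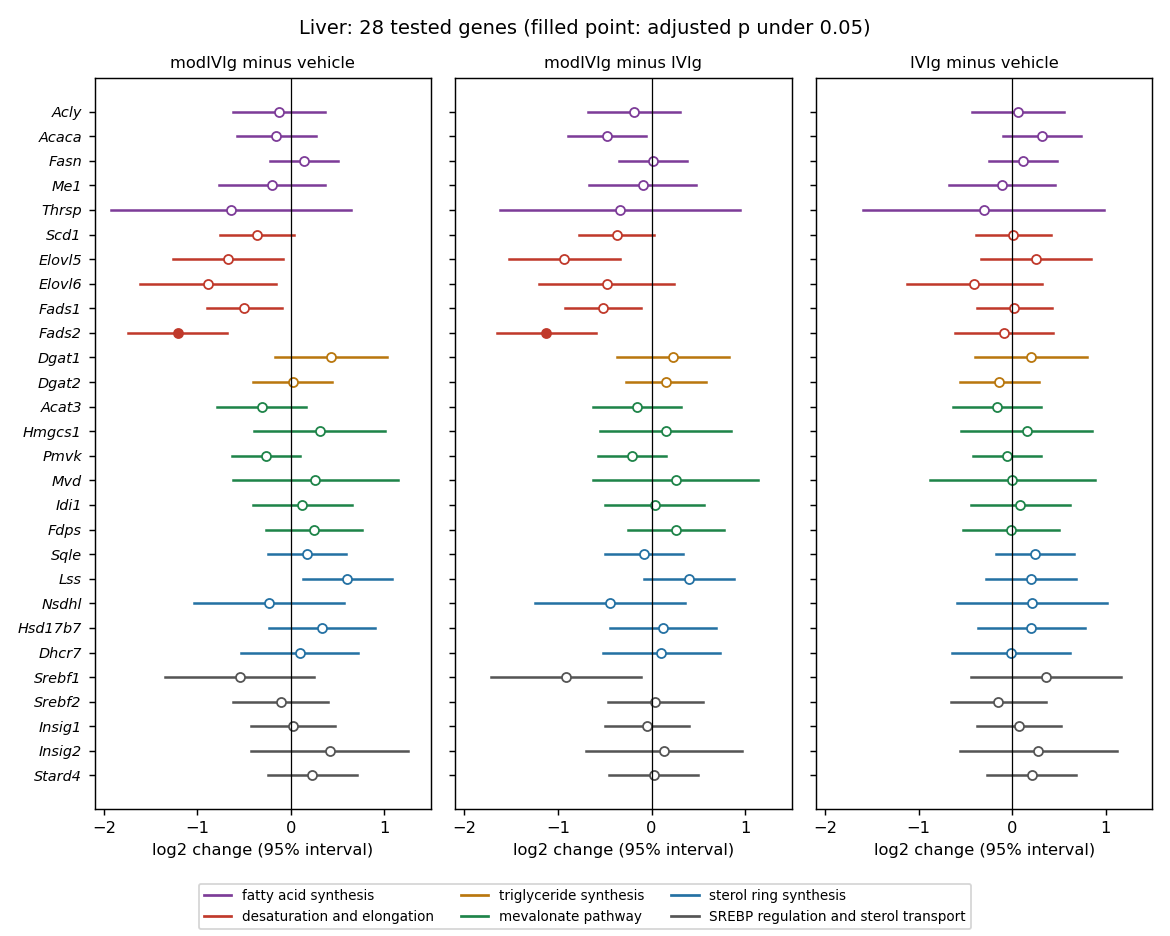
Log2 change (horizontal axis) with its 95% interval for the 28 genes tested in liver, in panels for modIVIg minus vehicle, modIVIg minus IVIg and IVIg minus vehicle; colours give the role and a filled point an adjusted p under 0.05. Fads2 is filled in both modIVIg panels (-1.21 and -1.13), the other desaturases and elongases lie left of 0 there, and no point is filled for IVIg minus vehicle.

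Genes of the same pathways outside the list were counted in the same liver fit against vehicle. Of 12 tested other fatty acid synthesis genes, 5 were higher and 7 lower, with 0 past the threshold and a median of -0.14. Acss2, which makes acetyl-CoA from acetate, had 9.30, 9.79, 9.26 and 10.59 on modIVIg arrays, 11.28, 12.06, 12.11 and 10.85 on IVIg arrays and 10.31, 12.51, 11.20 and 11.22 on vehicle arrays. Its modIVIg arrays were below all IVIg arrays and overlapped vehicle, with log2 changes of -1.84 ± 0.44 against IVIg (adjusted p = 0.0672) and -1.57 ± 0.44 against vehicle (adjusted p = 0.0577). The elongation enzymes Tecr and Elovl2 had -0.41 and -0.52 against vehicle.

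Of 10 other triglyceride and lipid droplet genes, 4 were higher and 6 lower. Gpat3 was past the threshold, but its probe met the detection filter only through the modIVIg arrays, where it was high. Gpat3, an acyltransferase of the first step of glycerolipid synthesis, had 6.26, 6.47, 6.91 and 6.38 on modIVIg arrays, 5.20, 6.11, 5.81 and 6.13 on IVIg arrays and 5.45, 5.79, 5.81 and 5.32 on vehicle arrays. It was detected on 4 modIVIg arrays and on 0 of the 8 others, and against vehicle it was at least 1.08-fold higher (limma adjusted p = 0.0374). That bound sets the mean of the modIVIg arrays against the lowest detected signal of each vehicle array, or the probe's own signal where higher. Lpin1, a phosphatidate phosphatase, had 6.83, 7.65, 7.06 and 7.14 on modIVIg arrays, 8.36, 9.57, 7.12 and 8.04 on IVIg arrays and 7.63, 9.45, 9.43 and 8.32 on vehicle arrays, and it did not pass (-1.54 ± 0.49, adjusted p = 0.0864). Mttp, which loads lipid onto lipoproteins, had -0.61 ± 0.18 (adjusted p = 0.0729).

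Of 5 other sterol genes, 3 were higher and 2 lower with 0 past the threshold, among them Msmo1 at 0.29, Cyp51 at 0.20 and Tm7sf2 at -0.38. Of 9 other regulators, 3 were higher and 6 lower with 0 past the threshold. Scap, the escort protein of the SREBPs, had 8.26, 8.11, 8.48 and 8.32 on modIVIg arrays, 8.72, 8.63, 8.69 and 8.56 on IVIg arrays and 8.40, 8.92, 8.97 and 8.89 on vehicle arrays. Its change of -0.50 ± 0.14 against vehicle missed the threshold (adjusted p = 0.0577), as did Mlx (0.46) and Rxra (-0.30).

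Of 4 Kupffer cell markers, 3 were lower than under vehicle with both immunoglobulins in fitted mean, and these passed with modIVIg but not with IVIg, while between modIVIg and IVIg 0 passed. Of 7 hepatocyte markers tested, 0 passed. The summed intensity of the 8 listed, all with a probe, was 190891 to 207538 with modIVIg, 203020 to 217962 with IVIg and 204304 to 213649 with vehicle. Of 4 Kupffer cell markers tested, 3 fell with modIVIg against vehicle, beside 2.95% of all features passing as lower. They were Vsig4 (-1.84 ± 0.35, limma adjusted p = 0.0164), Clec4f (-1.16 ± 0.25, adjusted p = 0.0272) and Timd4 (at least 1.35-fold lower, adjusted p = 0.0370). Timd4 was detected on no modIVIg array and met the detection filter only through the other groups, so its call follows in part from the filter. Marco did not pass (0.32 ± 0.51), and Cd5l was detected on no array. With IVIg against vehicle the 4 markers had a median log2 change of -0.63, with 3 lower, 3 at an unadjusted p under 0.05 and 0 passing, and with modIVIg against IVIg the median was -0.38, with 0 passing. The summed intensity of the 5 Kupffer markers with a probe was 448.0 to 1378 with modIVIg, 522.1 to 1376 with IVIg and 735.8 to 1652 with vehicle. The 2 adipocyte markers tested in liver had a median log2 change of -0.44, and 0 passed. Their part in the Fads2 result was not tested.

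In kidney, none of the 27 genes passed in any comparison, and neither did any of the 8544 features (0% in each). The values that stood out were Scd1, Acaca, Thrsp and Elovl6, which were highest on the same 3 arrays, Acat3, which was high with modIVIg, and Idi1, Me1 and Insig1, which differed between replicate numbers in all 3 treatments. Thrsp met the detection filter only through the 3 arrays where it was high. At an unadjusted p under 0.05 there were 3 of 27 genes for modIVIg against vehicle (2.65% of all features), 6 for modIVIg against IVIg (3.8%) and 4 for IVIg against vehicle (1.36%), out of 226, 325 and 116 features. Lower fitted levels were found for 21, 16 and 19 of the 27 genes in these comparisons, beside 45.5%, 52.1% and 42.1% of all features. The medians were -0.17, -0.04 and -0.07 for the genes and 0.03, -0.01 and 0.04 for all features.

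Groups did not overlap for 3 genes with modIVIg against vehicle: Dgat1, which was higher (3.03% of all features), and Fads1 and Mvd, which were lower (2.21%). With modIVIg against IVIg they did not overlap for Scd1 and Acat3, which were higher (1.11%), and Fads1, which was lower (1.28%). With IVIg against vehicle this was so for Scd1, which was lower (0.456%).

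Acat3 had 7.31, 6.77, 7.58 and 7.68 on modIVIg arrays, 6.39, 5.87, 6.03 and 6.60 on IVIg arrays and 6.19, 6.28 and 6.91 on vehicle arrays. The modIVIg arrays lay above all IVIg arrays, and vehicle replicate 3 lay above modIVIg replicate 2. The log2 change was 1.11 ± 0.26 against IVIg and 0.88 ± 0.28 against vehicle, and limma's adjusted p was 0.997 or more for both. With the split of replicates 1 and 2 from 3 and 4 as a block they were 1.11 ± 0.19 (adjusted p = 0.265) and 0.80 ± 0.20 (adjusted p = 0.582). The probe was detected on 9 of the 11 arrays, and whether it also reads Acat2 was not tested.

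Scd1 had 12.94, 13.71, 12.91 and 13.78 on modIVIg arrays, 12.54, 12.68, 11.93 and 11.72 on IVIg arrays and 12.84, 15.02 and 13.81 on vehicle arrays. All IVIg arrays lay below all others, and vehicle replicate 2 was by far the highest. The log2 change was 1.11 ± 0.44 for modIVIg against IVIg and -1.67 ± 0.47 for IVIg against vehicle.

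Thrsp had 5.32, 5.58, 5.87 and 7.08 on modIVIg arrays, 4.84, 4.94, 5.53 and 5.13 on IVIg arrays and 4.99, 7.36 and 7.28 on vehicle arrays, and its probe was detected on 3 arrays: modIVIg replicate 4 and vehicle replicates 2 and 3. IVIg was at least 1.19-fold below vehicle, without passing. Acaca and Elovl6 are named after their values were seen. Acaca had 9.62, 10.47, 10.25 and 11.43 on modIVIg arrays, 9.17, 9.46, 10.20 and 9.22 on IVIg arrays and 9.36, 12.32 and 11.43 on vehicle arrays. Elovl6 had 8.28, 8.58, 8.69 and 9.25 on modIVIg arrays, 8.41, 8.79, 8.14 and 8.65 on IVIg arrays and 8.69, 9.90 and 9.59 on vehicle arrays. The highest array was vehicle replicate 2, then vehicle replicate 3 and modIVIg replicate 4 for each of Scd1, Acaca, Thrsp and Elovl6. Thrsp met the detection filter only through these 3 arrays, so its place among these genes follows in part from the filter.

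Adipocyte markers were also high on these 3 arrays, and on modIVIg replicate 2. The 8 markers of 9 with a probe summed to 1411, 5898, 2798 and 4302 intensity units on modIVIg arrays, 672.5, 720.8, 543.5 and 370.5 on IVIg arrays and 614.8, 7643 and 4019 on vehicle arrays. Of these markers, 5 passed the filter (Adipoq, Cidec, Plin4, Lep and Car3). Fabp4, Plin1 and Retn were detected on no array and Cfd had no probe. All IVIg arrays lay below all modIVIg arrays, and vehicle replicate 1 lay among the IVIg arrays. The match with the genes was partial: modIVIg replicate 2, with the second highest marker sum, was the fourth highest array for Scd1 and Acaca, the fifth for Thrsp and the eighth for Elovl6. The median log2 change of the 5 markers that passed the filter was 2.06 for modIVIg against IVIg, -1.77 for IVIg against vehicle and 0.29 for modIVIg against vehicle, with 0 past the threshold. The part of the adipocyte markers in the values of Scd1, Acaca, Thrsp and Elovl6 was not tested.

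**Figure D3:**
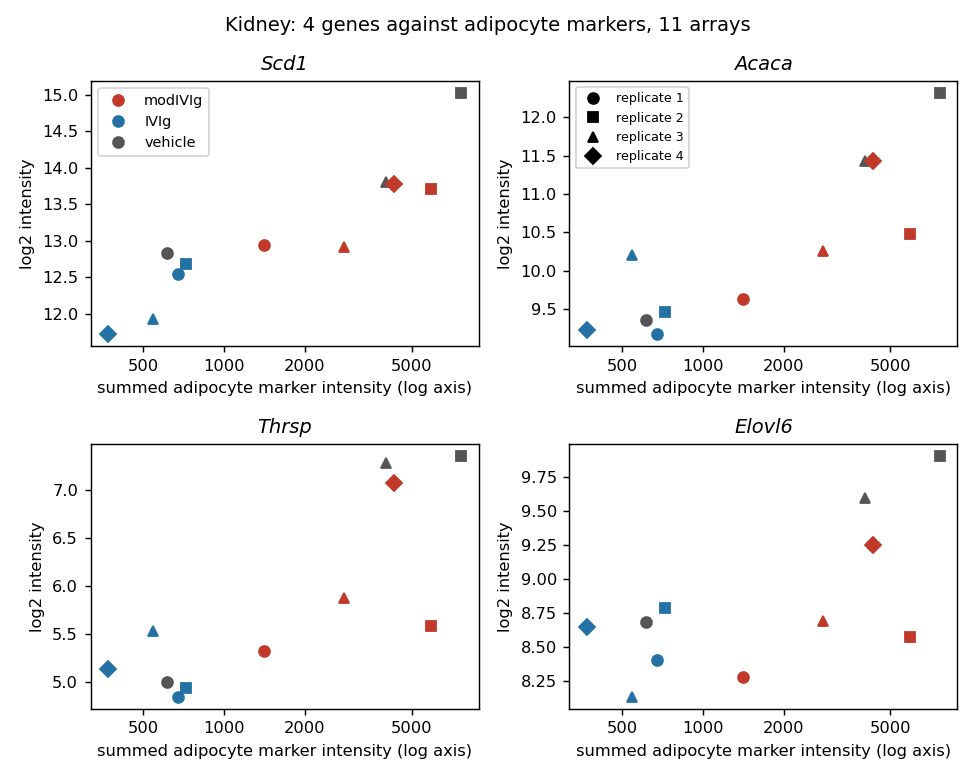
Level of Scd1, Acaca, Thrsp and Elovl6 (log2 intensity, vertical) against the summed intensity of the 8 adipocyte markers with a probe (log axis, horizontal) on 11 kidney arrays. Colours give the treatment and symbols the replicate number. Vehicle replicate 2 has the highest marker sum (7643) and the highest level of each gene, and vehicle replicate 1 lies with the IVIg arrays (370.5 to 720.8).

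The other genes described by array in kidney differed little. Dgat1 had 6.92, 6.69, 7.34 and 6.74 on modIVIg arrays, 6.55, 6.26, 6.62 and 6.76 on IVIg arrays and 6.61, 6.67 and 6.62 on vehicle arrays, and the modIVIg arrays lay just above the vehicle arrays (0.29 ± 0.18). Nsdhl had 6.41, 6.72, 7.33 and 7.06 on modIVIg arrays, 7.12, 7.12, 7.95 and 7.30 on IVIg arrays and 6.99, 7.14 and 7.56 on vehicle arrays, with overlap between all groups (-0.35 ± 0.27 for modIVIg against vehicle). Stard4 had 8.81, 8.72, 8.66 and 8.43 on modIVIg arrays, 8.44, 8.76, 10.88 and 8.70 on IVIg arrays and 9.14, 9.09 and 8.68 on vehicle arrays, and IVIg replicate 3 was by far the highest.

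Fads1 and Fads2 are given for kidney because of their liver values. Fads1 had 12.05, 12.18, 12.19 and 12.24 on modIVIg arrays, 12.38, 12.37, 12.67 and 12.51 on IVIg arrays and 12.49, 12.46 and 12.38 on vehicle arrays. All 4 modIVIg arrays lay below all 7 others, by small amounts (-0.32 ± 0.11 against IVIg and -0.28 ± 0.12 against vehicle, not passed). Fads2 had 7.69, 7.45, 8.14 and 7.86 on modIVIg arrays, 7.64, 7.83, 8.40 and 7.94 on IVIg arrays and 7.70, 7.95 and 8.22 on vehicle arrays, with overlap and a log2 change of -0.17 ± 0.22 against vehicle (95% interval -0.67 to 0.33).

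Idi1, Me1 and Insig1 in kidney were described after their values were seen. Idi1, isopentenyl diphosphate isomerase of the mevalonate pathway, had 8.62, 9.17, 5.31 and 5.09 on modIVIg arrays, 9.50, 9.61, 5.50 and 5.25 on IVIg arrays and 10.02, 9.71 and 5.31 on vehicle arrays. It was detected on all 6 arrays of replicates 1 and 2 and on 0 of the 5 arrays of replicates 3 and 4, and was at least 7.79-fold higher on replicates 1 and 2. Within each treatment the 2 sets did not overlap. In liver its levels ran from 9.34 to 10.46 with no such split.

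Both Me1 probes showed the split. The brighter had 13.49, 13.31, 11.06 and 10.98 on modIVIg arrays, 13.41, 13.43, 10.83 and 11.01 on IVIg arrays and 13.46, 13.62 and 11.27 on vehicle arrays, 5.35-fold higher on replicates 1 and 2, and for the other the ratio was 18.7-fold. For Insig1 the probe ILMN_2895388 had 9.83, 10.05, 6.09 and 5.78 on modIVIg arrays, 9.72, 10.06, 5.98 and 6.33 on IVIg arrays and 9.99, 10.16 and 5.63 on vehicle arrays. It was detected on 0 of the 5 arrays of replicates 3 and 4 and was at least 11.3-fold higher on replicates 1 and 2. The other Insig1 probes overlapped between the sets, with 6.58 to 7.15 on replicates 1 and 2 against 6.59 to 7.51 on replicates 3 and 4 for ILMN_1245272. Probes of Insig1 therefore disagree on this split.

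Of 27 genes, 4 did not overlap between replicates 1 and 2 and replicates 3 and 4 (Me1, Idi1, Insig1 and Insig2), beside 32.7% of all features. Of these, 3 also differed over 2-fold, beside 10.4% of all features, and all 3 were higher in replicates 1 and 2, as were 10.2% of all features. With the split as a block, the standard error of Idi1 for modIVIg against vehicle fell to 0.20, against 1.61 without it, and its log2 change was -0.62 (adjusted p = 0.582), against -1.30 without it. On replicates 1 and 2, the arrays that detected Idi1, both modIVIg arrays lay below all IVIg and vehicle arrays. For Me1 the change was -0.17 ± 0.10 with the block and -0.57 ± 0.94 without, and for Insig1 0.01 ± 0.18 with it and -0.66 ± 1.58 without. The block fits of Idi1 and Insig1 include replicates 3 and 4, where the probes used were not detected. Their changes and standard errors therefore rest in part on background signal. With the block 0 features passed in limma in any comparison (667, 804 and 328 at an unadjusted p under 0.05, with 6, 8 and 4 of the 27 genes), and the smallest adjusted p among the genes was 0.265. The labels do not say what the replicate numbers stand for, and the source of the split was not tested.

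**Figure D4:**
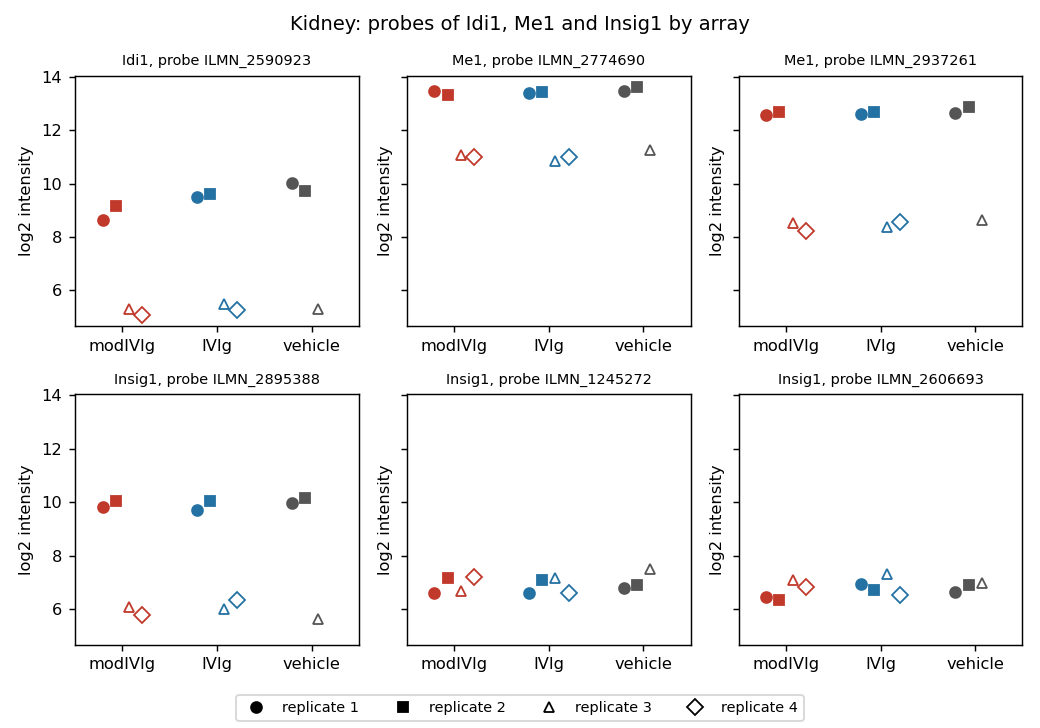
Levels of the kidney probes of Idi1, Me1 and Insig1 on 11 arrays, in log2 intensity on 1 common vertical scale, by treatment; filled symbols are replicates 1 and 2 and open symbols replicates 3 and 4. Idi1, both Me1 probes and Insig1 probe ILMN_2895388 are higher in replicates 1 and 2 in all 3 treatments (for Idi1, 8.62 to 10.02 against 5.09 to 5.50), and the other Insig1 probes are not.

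Whether a treatment change differed between liver and kidney was tested over the 26 genes kept in both organs, in a fit of all 23 arrays. For modIVIg against vehicle 0 of 26 genes passed, beside 0.104% of 6739 features. For modIVIg against IVIg 0 passed, beside 0.0297%, and for IVIg against vehicle 0, beside 0%. At an unadjusted p under 0.05 there were 2, 6 and 2 of the 26 genes and 535, 463 and 62 features. For Fads2 the change against vehicle was -1.17 in liver and -0.17 in kidney, a difference of -1.0 ± 0.34 with an interval from -1.70 to -0.29 and an adjusted p of 0.421. The fall of Fads2 in liver is thus not shown to differ from kidney after adjustment. Acat3, higher with modIVIg in kidney, had the smallest limma p among the 26 genes in both modIVIg comparisons. Its difference was -1.14 ± 0.35 against vehicle (adjusted p = 0.354) and -1.19 ± 0.33 against IVIg (adjusted p = 0.419). For Scd1 it was -1.53 ± 0.53 for modIVIg against IVIg (adjusted p = 0.521) and 1.85 ± 0.55 for IVIg against vehicle (not passed). For Elovl5 against IVIg the difference was -0.87 ± 0.32 (adjusted p = 0.580), and for Lss against vehicle it was 0.74 ± 0.37 (adjusted p = 0.652).

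Under vehicle, most of these genes were higher in liver than in kidney. Genes that passed the detection filter in at least 1 organ were tested. Of 29 genes tested, 19 were higher in liver, 2 lower and 8 did not pass, and the median log2 difference was 1.27. Fasn and Dhcr7, both among the 19, met the filter only through liver, where they were high. Their calls therefore follow in part from the filter, and they are also in the counts by role below. Of all 8958 features 57.1% passed, 24.7% higher in liver and 32.4% lower, with a median of -0.05. The number of genes past the threshold in either direction was 19 to 21 with any 1 array left out. By role, 5 of 6 desaturases and elongases, 4 of 5 sterol ring genes, 4 of 5 genes of SREBP regulation and sterol transport, 3 of 6 mevalonate pathway genes and 1 of 2 triglyceride genes were higher, and fatty acid synthesis genes were mixed with 2 higher, 2 lower and 1 not passed.

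Among sterol genes, Fdps, farnesyl diphosphate synthase, had 12.40, 13.22, 12.68 and 12.87 in liver and 9.59, 9.30 and 9.60 in kidney, a difference of 3.30 ± 0.22 (adjusted p = 4.55e-11). Dhcr7, the last reductase of cholesterol synthesis, had 8.89, 9.79, 9.83 and 9.89 in liver and 6.17, 5.92 and 5.94 in kidney, where it was detected on 1 of 3 arrays (3.59 ± 0.29). Lss had 9.65, 9.47, 9.68 and 9.86 in liver and 6.90, 7.07 and 7.03 in kidney (2.67 ± 0.27). The organs did not overlap for any of these 3, of which Dhcr7 met the detection filter only through liver. Hmgcs1, the synthase that starts the mevalonate pathway proper, went the other way without passing (-0.65 ± 0.29, adjusted p = 0.0651), and Sqle and Mvd differed by 0.25 each (not passed). Nsdhl, counted above among the higher sterol ring genes (0.98 ± 0.36, adjusted p = 0.0237), was lost in 4 of 7 fits with 1 array left out: without liver vehicle replicate 2 or 4 or kidney vehicle replicate 1 or 2, with adjusted p up to 0.10. It was also lost in 3 of 6 other settings, among them median scaling (0.46, adjusted p = 0.257).

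Among fatty acid genes, Thrsp had 8.67, 11.06, 10.63 and 10.07 in liver and 4.97, 7.07 and 7.0 in kidney (3.76 ± 0.61). Acly had 11.35, 12.46, 11.69 and 11.69 in liver and 13.20, 13.61 and 13.08 in kidney, lower in liver by a log2 difference of -1.50 ± 0.21 (adjusted p = 5.01e-06). Me1 was also lower in liver (-1.78 ± 0.74, adjusted p = 0.0463), but this was lost in 5 of 7 fits with 1 array left out (without liver vehicle replicate 1, 3 or 4 or kidney vehicle replicate 1 or 2), where adjusted p over the 7 ran from 0.00823 to 0.190. Its difference was -2.61 with kidney replicates 1 and 2 only and -0.20 against the single kidney replicate 3 array. Fasn was at least 1.29-fold higher in liver, where it was detected on 1 of 4 arrays, and on 0 of 3 in kidney. Fads2 (1.69 ± 0.25), Elovl5 (1.63), Fads1 (1.54 ± 0.16), Elovl6 (1.51) and Scd1 (1.49 ± 0.40) were higher in liver, and Scd2 was not (-0.23 ± 0.24).

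Insig1 was higher in liver by 3.74 ± 1.12 (adjusted p = 0.00728), and by 2.31 with kidney replicates 1 and 2 only, since kidney vehicle replicate 3 did not detect its probe. It did not pass without that array (2.30, adjusted p = 0.0830). Idi1 did not pass (1.79 ± 1.11, adjusted p = 0.179), and its difference was 0.33 with kidney replicates 1 and 2 only, replicate 3 not having detected it.

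**Figure D5:**
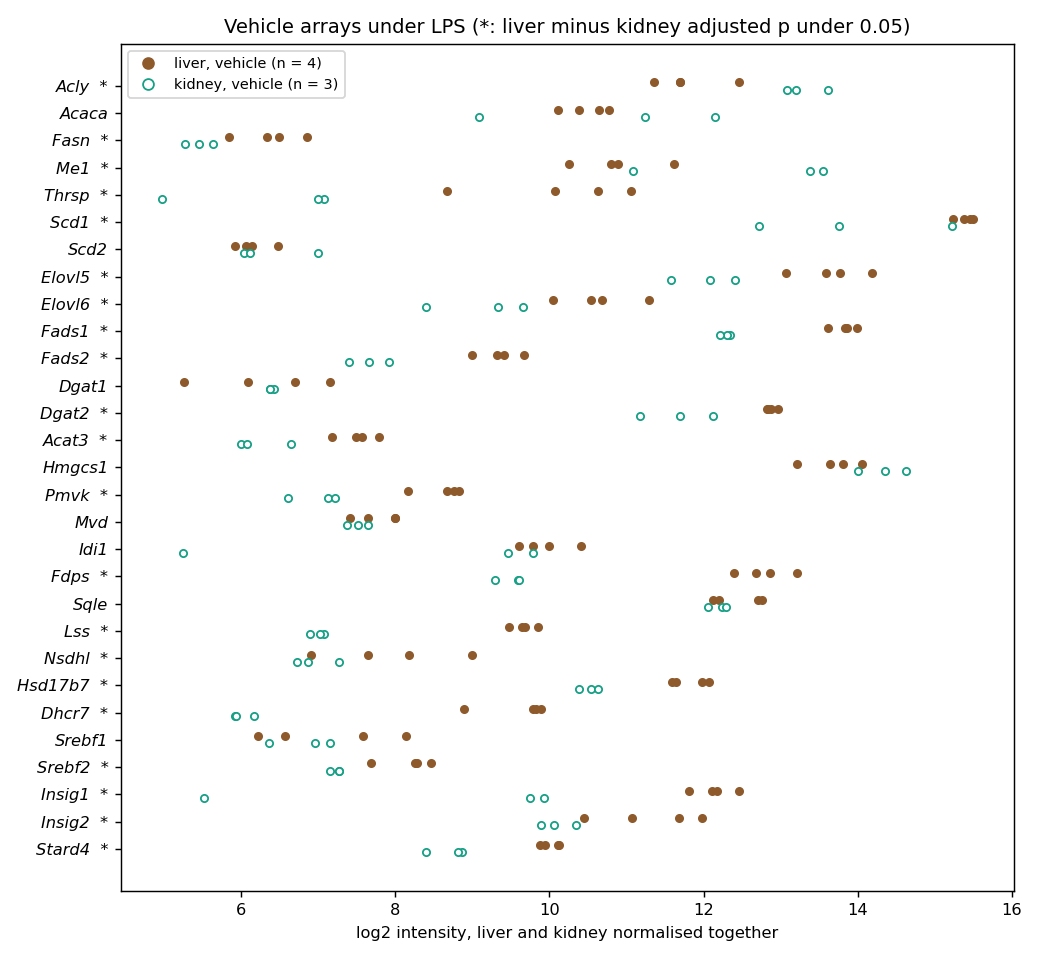
Levels of 29 genes on the 4 liver (filled) and 3 kidney (open) vehicle arrays, in log2 intensity after normalising both organs together; a star marks a liver minus kidney difference with an adjusted p under 0.05. Liver points lie right of kidney points for most genes, Acly and Me1 are starred with liver on the left, and Idi1, Insig1 and Me1 each have 1 kidney array far below the other 2.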

How the data were processed

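RNA of liver and kidney was measured on Illumina mouse bead arrays. The deposited signal is 1 raw intensity for each probe on each array, with no normalisation and no background subtraction, and the deposited detection p-value per probe comes from the scanner software, per the file headers. A second table of the authors gives log2 values that, per the labels and design text, were normalised within each organ; GenomeStudio 1.9.0, lumi and limma are named in the submitters' processing notes with no roles.

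Probe symbols came from the platform annotation; 23978 probes had 1 symbol, 0 several and 1719 none. For each organ, neqc in limma 3.58.1 removed background and set equal quantiles across arrays (offset 16; R 4.3.3 with statmod 1.5.0). A probe was kept with a detection p under 0.01 on at least 4 liver or 3 kidney arrays, and the brightest kept probe stood for its gene, which left 7155 features in liver and 8544 in kidney. lmFit and eBayes fitted 3 groups per organ with 1 shared spread, and Benjamini-Hochberg adjusted p under 0.05 was the threshold. Contrasts between organs used a joint normalisation of 23 arrays. The difference under vehicle was tested over features kept in at least 1 organ, and differences of treatment changes over features kept in both. A fold against a group with the probe undetected throughout is given as "at least", set against the dimmest signal detected there. Fits were tested on simulated data. Figures and motif searches used Python 3.11.15, pandas 2.3.3 and matplotlib 3.10.9. The number of arrays limits the precision.

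The genes and lists were chosen with earlier results of these data known. Values by array are given for genes past the threshold within an organ, for the 2 genes of each role with the largest moderated statistic in liver and for the 1 in kidney, and for up to 3 genes of each other list by smallest p in liver. Same-numbered kidney arrays deviated together in 10 of 10 pairs (correlations 0.587 to 0.849), which comes from the data and not from the labels; in liver 6 of 12 did (-0.130 to 0.521). Alternatives covered background correction, the authors' values, filter, probe, joint normalisation, array weights, variance prior, groups fitted, replicate block and each array left out. Kidney fits within parts of the split, with arrays left out under its block, and a liver fit without 2 arrays that stood apart were chosen after seeing the data. A block for slide was not run, since the files name no slides.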

Additional observations from a re-analysis of the deposited data

Results flagged for a closer look

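Stard4, the sterol carrier, had 1 array far from the others among the kidney IVIg arrays. IVIg replicate 3 had a level of 10.88, and the other IVIg arrays had 8.44 to 8.76. The gap to the nearest array was 0.866 of the group's range, above Dixon's 95% critical value for 4 samples. In all, 48 groups were looked at and 1 such array was found, where chance gives about 1 in 20. The Stard4 log2 change of modIVIg against IVIg was -0.54 in the fit of all kidney arrays, 0.16 within replicates 1 and 2 and -1.25 within replicates 3 and 4. IVIg replicate 3 was also the highest of the kidney arrays for 5 of 10 sterol synthesis genes and for 30.2% of all features.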

How the results depend on the processing

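No result changed direction past the threshold under any setting tried, and 675 of 768 counts and medians stayed within their limits. For genes, 1667 of 1715 results were counted as the same. In tested fits this required an unchanged call and not a similar value. A gene past the threshold in neither fit counted as the same whatever its value or sign. Scd1 in kidney, for modIVIg against vehicle, ran from -1.08 to 0.0092 with 1 array left out and was counted so. For modIVIg against vehicle in liver, 3 genes passed with array quality weights and 2 with only the 2 groups compared, against 1 in the main analysis, and 352 features became 187 with no detection filter, 1112 with weights, 540 with a replicate block and 821 with only the 2 groups. For modIVIg against IVIg, 0 genes passed with no background correction, the authors' values, no detection filter, every kept probe, joint normalisation, weights, the replicate block or only the 2 groups, against 1, and 78 features became 16 with no filter, 230 with weights, 123 with a trended prior, 180 with the replicate block and 19 with only the 2 groups. Lss passed against vehicle with weights (adjusted p = 0.0413) and with only the 2 groups (0.0285). Leaving out 1 liver array gave 0 to 2 genes and 82 to 820 features against vehicle, and 0 to 2 genes and 10 to 359 features against IVIg. For the difference between organs, features passing were 70 with weights for modIVIg against vehicle, and 5 with no filter, 1 with the replicate block and 32 with weights for modIVIg against IVIg. The weights of this joint fit came with a convergence warning, so 70 and 32 are uncertain. Leaving out 1 array gave medians of -0.035 to 0.31 for the genes in modIVIg against vehicle, and features numbering 2 to 13, 1 to 10 and, for IVIg against vehicle, 0 to 9 features and 0 to 2 genes, both highest without kidney vehicle replicate 1. In kidney, leaving out any array gave 0 features, and the median for IVIg against vehicle was -0.18 within replicates 1 and 2. Under vehicle, the median of liver minus kidney was 0.99 with median scaling and 1.05 to 1.32 with 1 array left out, with 19 to 21 genes and 4596 to 4916 features passing. Blocking on the replicate number in liver ended the call of Fads2 against IVIg (limma adjusted p = 0.0615), and in kidney it changed no call. The labels do not say whether the numbers pair the arrays in either organ, and the data did not settle it. The causes were not tested. Probes near background, such as Fasn, Dgat1, Srebf1 and kidney Thrsp, give compressed differences.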
